A study of Mus musculus with 22 samples.

Results

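The 10 genes described here encode G protein-coupled receptors through which gut epithelial cells sense nutrients, microbial metabolites and gut hormones. They are *Ffar1*, *Ffar2*, *Ffar3* and *Ffar4*, whose products bind free fatty acids, *Gpr119*, *Gpbar1*, *Sucnr1* and *Casr*, whose products sense lipid amides, bile acids, succinate and calcium, and *Glp1r* and *Grpr*, the receptors of the peptides GLP-1 and GRP. The genes were chosen by name as a set of known nutrient and hormone receptors, and all 10 of them were found among the 24421 genes of the count files. Their RNA is described across the 6 cell types of the study.

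Receptors of this kind sit on the cell surface and pass a signal to a heterotrimeric G protein, which then changes cyclic AMP or releases calcium inside the cell. In the intestine they are best known from enteroendocrine cells, which release hormones when nutrients reach them, and from tuft cells, chemosensory cells that carry parts of the taste pathway. Short chain fatty acids and succinate are products of the bacteria of the gut lumen, whereas GLP-1 and GRP come from neighbouring endocrine cells or nerves.

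The data are 22 RNA libraries of cells that were flow sorted from colon crypts of wild-type male C57BL/6N mice of 5 to 7 weeks, without any treatment. All cells were negative for Cd31 and Cd45 and positive for Epcam. Stem cells (Stem, n = 3) had the highest Cd44 with low Cd24 and no cKit, and absorptive progenitors (AbsPro, n = 3) had medium to high Cd44 with low Cd24 and no cKit. The mixed population of secretory progenitors, deep crypt secretory cells and goblet cells (SecPDG, n = 4) had high Cd44 with medium Cd24 and cKit, and tuft cells (n = 5) had high Cd24 and cKit. Enterocytes (Ent, n = 5) had low or no Cd44 and no Cd24, and enteroendocrine cells (EEC, n = 2) had low or no Cd44 with Cd24. These gates are those of the sample labels. The study's text instead gives medium Cd44 for SecPDG, and it reports cKit protein as found in tuft cells alone. By the study's methods the libraries come from independent mice and sorts, those of SecPDG, tuft cells, Ent and EECs pool several mice, and the EECs are mainly enterochromaffin cells, the serotonin-producing type.

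The promoters of *Sucnr1* and *Ffar3* are shown first, since these are the genes with the highest mean in tuft cells and a low mean in SecPDG. Tuft cells depend on Pou2f3, a factor of the POU family, whose members read the octamer ATGCAAAT. Both strands of 32851 RefSeq promoter windows (GRCm38.p6, 250 bases before to 50 after the start of a gene) were searched for this octamer and for its first 7 letters, ATGCAAA, which the octamer contains. All 10 genes had a window, 13 in all, since *Ffar2* has several starts. The octamer was in 1.74% of all windows and in 1 of the 13, that of *Sucnr1*, 48 bases before the start. The 7 letters were in 4.63% of all windows and in 2 of the 13, those of *Sucnr1* and *Ffar3*, in the latter on the opposite strand and 136 bases before the start. A match of letters is a description and no evidence that a factor binds. The stretches below read 5′ to 3′ on the strand of the gene, with the matching letters in capitals. They lie at chr3:60081810-60081839 on the plus strand and chr7:30856296-30856325 on the minus strand.
Sucnr1: ggctgcataatATGCAAATcagactgcact
Ffar3: tgtcctttcttTTTGCATatggacacagcc

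The values are normalized counts, which means that each count was scaled by the effective size of its library (total and TMM factor of edgeR) to the mean effective size. Counts on genes were deepest in Stem, at 19900282 to 22462518 per library, and were 15314543 to 22157285 in the progenitors AbsPro and SecPDG. They were 9930648 to 20892532 for tuft cells, 5950619 to 12966128 for Ent and 4122122 and 13132315 for EEC 1 and EEC 2. The libraries also differed in background. It was estimated from 1533 genes of olfactory, vomeronasal, keratin-associated and beta-defensin families (*Olfr78* and *Olfr558* were left out). These were taken as hardly expressed in colon epithelium, and any true expression of them would raise the estimate. Together they held 12.6 to 148 CPM (counts scaled to 1 common library total) in the libraries of Stem, AbsPro and SecPDG. They held 180 to 1492 CPM in tuft cells, 790 to 3929 in Ent, 7055 in EEC 1 and 543 in EEC 2. EEC 1 was also the library with the fewest counts on genes and with the largest share of reads in no annotated gene, 89.9% of these and the counts on genes together. A background was also computed for each receptor from its exon length.

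A gene was called different when the adjusted p of edgeR's quasi-likelihood test was under 0.01 and its mean over the 22 libraries was at least 50 normalized counts, the thresholds that the study used. All 10 receptors passed the filter on low counts and were tested, and 6 reached the minimum mean, namely *Ffar2*, *Ffar4*, *Glp1r*, *Grpr*, *Casr* and *Ffar3*. The other 4, *Sucnr1*, *Gpr119*, *Gpbar1* and *Ffar1*, could not be called whatever their p. Against Stem, none of the 10 was called in AbsPro, where 0.588% of the 22781 genes tested were called. *Grpr* alone had an unadjusted p under 0.05 there, beside 9.10% of all genes, and DESeq2's Wald test called 1, the same gene. In SecPDG 3 were called and all were higher, beside 3.38% of all genes called higher. In tuft cells 5 were called, all higher, beside 7.84%. In Ent 3 were called, all higher, beside 10.7%. In EECs 4 were called higher, beside 10.8%, and 1 was called lower, beside 9.13%.

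The median log2 fold change of the 10 receptors against Stem was 4.24 in tuft cells, 4.81 in Ent and 5.18 in EECs, beside 0.81, 1.16 and 0.87 over all genes tested. In SecPDG it was 2.05 over the 9 receptors with a fold, beside 0.00 over all genes. Genes without a count in 1 of the groups entered these medians at their lower bound, set by a floor of 3 counts over the group. Such medians lean on the low receptors, several of which were absent from Stem. The background estimate was also higher than in Stem. For the exon length of *Ffar1* its mean was 0.856 normalized counts in Stem and 1.22 in SecPDG. It was 9.91 in tuft cells, 19.5 in Ent and 23.7 in EECs. The estimate scales with exon length, so that its fold against Stem is the same for every gene. The part of background in the medians of the receptors was not tested. Among genes with a mean of at least 50 the median was -0.30 for both Ent and EECs under TMM scaling, and DESeq2's size factors gave 0.35 for Ent and 0.48 for EECs instead. Folds of Ent and EECs are to be read against this shift. In sorted bulk cells, more cells with a transcript and more RNA per cell cannot be told apart.

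Some markers of cells that the sort should leave out were also called higher in tuft cells, Ent and EECs. Of 11 immune markers, 2 were called higher than in Stem in tuft cells and 3 each in Ent and EECs, with medians of 3.00, 3.26 and 3.67 on the log2 scale. Of 4 endothelial markers all 4 were called higher in each of the 3, with medians of 5.07, 5.74 and 5.60. Of 8 stromal markers 2, 4 and 4 were called, with medians of 2.38, 3.43 and 2.92, and of 6 markers of neurons and glia 1, 2 and 2. Of all genes tested, 7.84%, 10.7% and 10.8% were called higher in tuft cells, Ent and EECs, with medians of 0.81, 1.16 and 0.87. None of these lists had a call by edgeR in AbsPro or SecPDG. The immune sum was 200 to 227 normalized counts in Stem, 1507 to 3554 in tuft cells, 464 to 1214 in Ent and 683 to 2536 in EECs, and *Ptprc*, the gene of Cd45, had means of 18.0, 1671, 115 and 427 in this order (chosen after its values were seen). *S100a8* was at 0 in Stem, and *S100a8*, *S100a9* and *Cd79a* were at 0 in EECs. The endothelial sum was 9.60 to 18.9 in Stem, 170 to 586 in tuft cells, 334 to 783 in Ent and 826 to 1340 in EECs. The background estimate for the exon lengths of these lists was also higher than in Stem. For the immune sum it was 9.18 in Stem, 106 in tuft cells, 209 in Ent and 254 in EECs. For the endothelial sum it was 4.96, 57.4, 113 and 137 in this order. For the stromal sum it was 139 in tuft cells, 272 in Ent and 331 in EECs. The stromal sums there were 165 to 1031, 638 to 1946 and 396 to 3762. The part of background in these medians and sums was not tested. Nor was the part of cells that the sort should leave out in the values of the receptors. Whether the *Ptprc* RNA came from immune cells or from the sorted tuft cells and EECs themselves was not tested either.

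**Figure D1:**
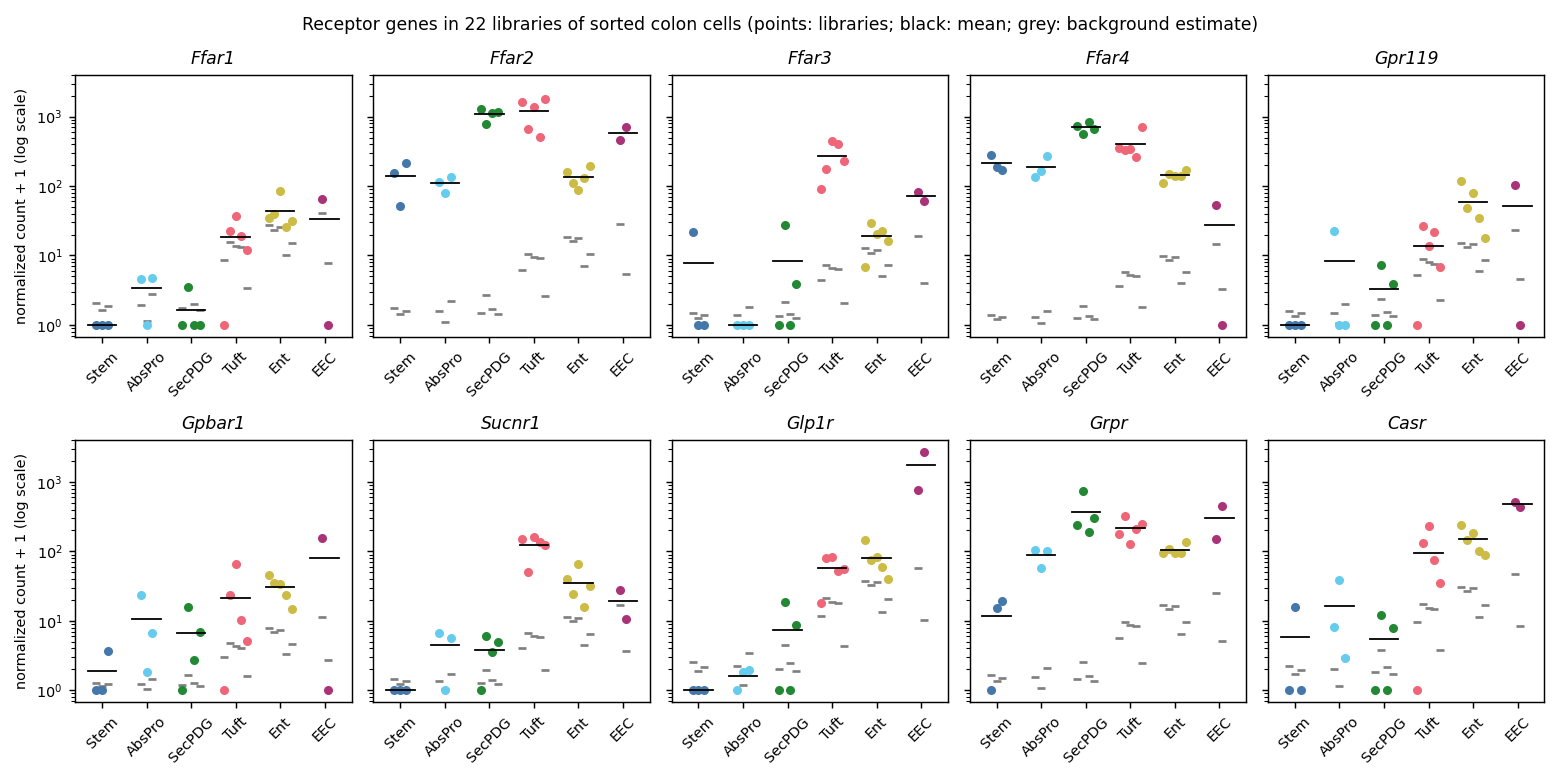
Normalized counts plus 1 (log scale) of the 10 receptors in each of the 22 libraries, by cell type; points are libraries, black bars are means and grey dashes are the background expected from exon length. *Ffar2* and *Ffar4* lie far above the dashes in Stem, AbsPro, SecPDG and tuft cells, *Ffar3* and *Sucnr1* peak in tuft cells and *Glp1r* in EECs, and *Ffar1* lies close to the dashes in most libraries.

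*Ffar2* encodes a receptor of acetate, propionate and other short chain fatty acids, and it had the highest mean of the 10 over all libraries, 585 normalized counts. It lies on chromosome 7 from 30818348 to 30823775 on the minus strand. The 3 Stem libraries were at 154, 50.6 and 212, the AbsPro libraries at 112, 79.7 and 133, and the SecPDG libraries at 1277, 781, 1120 and 1172. Tuft cells had 1623, 666, 1359, 507 and 1789, Ent had 159, 110, 86.7, 128 and 192, and EECs had 466 and 698. SecPDG, tuft cells and EECs were thus each above every library of Stem, AbsPro and Ent.

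Against Stem, *Ffar2* was higher by 2.99 ± 0.41 (log2, SE; adjusted p = 1.2e-07 by edgeR) in SecPDG and by 3.12 ± 0.40 (adjusted p = 1.5e-08) in tuft cells. In EECs it was higher by 2.10 ± 0.49 (adjusted p = 0.00040). The call in EECs was lost without EEC 2 (adjusted p = 0.013). Tuft cells and SecPDG did not differ by the test (0.13, 95% interval -0.44 to 0.71, adjusted p = 0.76). Nor did EECs and tuft cells (-1.02 ± 0.41, adjusted p = 0.069), Ent and Stem (adjusted p = 0.93) or AbsPro and Stem (adjusted p = 0.98).

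*Ffar3* encodes the sister receptor of short chain fatty acids and stands next to *Ffar1* and *Ffar2* on chromosome 7, from 30854330 to 30856178 on the minus strand. A gap of 1211 bases parts it from *Ffar1* and one of 30554 bases from *Ffar2*. Unlike *Ffar2* it had almost no reads in SecPDG, with 0, 26.1, 0 and 2.94 normalized counts. Stem had 20.7, 0 and 0, and AbsPro had 0 in all 3 libraries. Tuft cells had 90.3, 178, 441, 404 and 228, EECs had 81.4 and 59.5, and Ent had 5.85, 28.7, 19.6, 21.7 and 15.2. Every tuft cell library was above every other library, and the Ent values lay at 2.11 times their background of 8.62.

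In tuft cells *Ffar3* was higher than in Stem by 5.39 ± 0.76 (log2, SE; adjusted p = 6.6e-08), than in SecPDG by 5.46 ± 0.76 (adjusted p = 1.2e-07), and Ent were lower than tuft cells (-3.81 ± 0.59, adjusted p = 6.6e-07). Against AbsPro the tuft cell mean was at least 332-fold higher (adjusted p = 2.6e-08) and the EEC mean at least 87.1-fold higher (adjusted p = 0.0031). EECs and tuft cells were not called apart (-1.96 ± 0.67, adjusted p = 0.027), although their libraries did not overlap. Nor were EECs called against Stem (3.44 ± 1.24, adjusted p = 0.018), SecPDG (3.51 ± 1.26, adjusted p = 0.018) or Ent (1.86 ± 1.01, adjusted p = 0.26). The call of tuft cells against Stem was lost with counts thinned to the smallest library and with edgeR's legacy fit (adjusted p up to 0.015).

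Both short chain fatty acid receptors thus had their highest mean in tuft cells. In SecPDG *Ffar2* was at 91.5% of its mean in tuft cells and *Ffar3* at 2.71%, or 0.365% without SecPDG 2. The summed level of 7 tuft cell markers (*Dclk1*, *Trpm5*, *Pou2f3*, *Gfi1b*, *Plcg2*, *Avil* and *Alox5*) ran from 28293 to 75164 in tuft cells, 1218 to 1621 in SecPDG and 4480 to 9460 in EECs. The EEC mean of that sum was 13.8% of the tuft cell mean, beside 26.3% for *Ffar3*, 49.0% for *Ffar2* and 15.0% for *Sucnr1*. Without EEC 2 the share of the markers was 8.86%, and without EEC 1 that of *Sucnr1* was 7.93%. Against Stem, all 7 markers were called higher in tuft cells, beside 7.84% of all genes, and 6 of the 7 in EECs, beside 10.8%. In Ent 5 of the 7 were called higher, beside 10.7%, and in SecPDG 4, beside 3.38%. The part of tuft cells among the sorted EECs in these values was not tested.

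*Ffar4* encodes a receptor of long chain fatty acids and lies on chromosome 19 from 38097071 to 38114263 on the plus strand. Its mean per kilobase of exon was the highest of the 10 receptors in Stem, AbsPro, SecPDG and Ent, at 152, 136, 499 and 101 normalized counts per kilobase. Stem had 282, 190 and 168 normalized counts, AbsPro 136, 165 and 270, and SecPDG 723, 562, 847 and 666. Tuft cells had 356, 332, 339, 263 and 701, Ent had 111, 149, 138, 138 and 170, and EECs had 52.4 and 0, a mean of 3.30 times the background of 7.94. The SecPDG libraries stood above all Stem libraries and the EEC libraries below all of them.

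*Ffar4* rose in SecPDG by 1.73 ± 0.35 (log2, SE; adjusted p = 0.00035) and fell in EECs by 3.30 (SE 0.85, adjusted p = 0.0012), the one receptor of the 10 called lower than in Stem. In EECs it was also lower than in SecPDG (-5.03 ± 0.73, adjusted p = 1.5e-07) and in tuft cells (-4.25 ± 0.76, adjusted p = 2.5e-05). The call against Stem rests on EEC 2, whose value is 0: without it the adjusted p was 0.052, and with DESeq2's Wald test it was 0.017 in EECs and 0.025 in SecPDG. Tuft cells were not called against Stem (adjusted p = 0.035) nor against SecPDG (-0.79 ± 0.29, adjusted p = 0.064).

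The summed goblet cell markers (*Muc2*, *Clca1*, *Fcgbp*, *Tff3*, *Zg16*, *Spdef* and *Agr2*) were high in tuft cell libraries too. SecPDG held between 706978 and 3006636 and tuft cells between 687916 and 1089514, with 235877 to 689360 in Ent and 36599 to 61664 in EECs. The tuft cell mean of the sum was 66.1% of that of SecPDG, beside 109% for *Ffar2*, 56.9% for *Ffar4* and 58.5% for *Grpr*. Without SecPDG 2, which holds the highest sum, the share of the markers was 107% and that of *Grpr* 87.9%, so that the order of the 2 cell types in goblet cell markers rests on this library. The EEC mean was 3.50% of the SecPDG mean, or 5.64% without SecPDG 2, beside 53.5% for *Ffar2* and 3.75% for *Ffar4*, the latter between 0 and 7.50% with 1 of the EEC libraries left out. The part of goblet cell RNA in the tuft cell values was not tested.

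*Ffar1*, whose product is also a receptor of long chain fatty acids, was the lowest of the 10, with a mean of 17.0 normalized counts over all libraries. It had no reads in Stem, 3.53, 0 and 3.75 normalized counts in AbsPro, and 0, 2.49, 0 and 0 in SecPDG. Tuft cells had 0, 21.5, 36.7, 18.4 and 10.9, Ent had 33.6, 39.0, 84.3, 25.1 and 30.5, and EECs had 65.1 and 0. The background expected for its exon length of 4175 bases was 9.91 in tuft cells, 19.5 in Ent and 23.7 in EECs, so that the means were 1.76, 2.18 and 1.38 times the background. Its expression above background was therefore hardly detectable at this depth, although the Ent mean was at least 61.7-fold above Stem (adjusted p = 0.00063).

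*Gpr119* and *Gpbar1*, receptors of oleoylethanolamide-like lipids and of bile acids, are known from the endocrine L cells that make GLP-1. Both were low. *Gpr119* was at 0 in Stem, at 21.9, 0 and 0 in AbsPro and between 0 and 6.22 in SecPDG. It was between 0 and 25.2 in tuft cells, 116, 47.0, 77.4, 34.2 and 16.6 in Ent, and 101 and 0 in EECs. *Gpbar1* lay between 0 and 2.70 in Stem, between 0.81 and 22.6 in AbsPro and between 0 and 14.9 in SecPDG. Tuft cells had 0 to 65.7, Ent had 13.8 to 45.3, and EECs had 157 and 0. The Ent means of *Gpr119* and *Gpbar1* were 5.50 and 5.94 times their background. In tuft cells they were at 2.39 and 7.98 times, and in EECs at 3.94 and 12.9 times.

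In EECs both genes had an adjusted p under 0.01 against Stem (0.0090 for *Gpr119* and 0.0025 for *Gpbar1*). All of their EEC reads came from EEC 1, the library with the highest background. In EEC 1 *Gpr119* was at 4.59 times and *Gpbar1* at 15.0 times the background estimate. Without EEC 1 the log2 fold change was 0 for *Gpr119* and -3.12 for *Gpbar1*. The summed L cell markers (*Gcg*, *Pyy*, *Insl5* and *Nts*) were at 101 and 246 in the EECs, and at 2067 to 7491 in Ent and 571 to 4815 in AbsPro. The Ent libraries thus held more L cell marker RNA than the EEC libraries did, and its part in the *Gpr119* and *Gpbar1* values was not tested.

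*Sucnr1* encodes the receptor of succinate, through which tuft cells of the small intestine sense protists and bacteria. It lies on chromosome 3 from 60081869 to 60087566 on the plus strand. Stem had no reads, AbsPro had 5.65, 0 and 4.69, and SecPDG had 0, 4.97, 2.53 and 3.92 normalized counts. Tuft cells had 148, 49.2, 158, 136 and 121, Ent had 39.5, 22.9, 64.7, 14.8 and 30.5, and EECs had 27.1 and 9.71. The tuft cell mean of 122 ± 43.1 (SD, n = 5) was 31.5 times its background, the Ent mean 4.51 times and the EEC mean 1.98 times.

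The tuft cell mean of *Sucnr1* was at least 178-fold above Stem (adjusted p = 5.6e-07), higher than SecPDG by 5.44 ± 0.90 (log2, SE; adjusted p = 1.2e-05) and higher than AbsPro by 5.08 ± 0.89 (adjusted p = 1.5e-05). Ent were below tuft cells (-1.83 ± 0.51, adjusted p = 0.0086), and 1 tuft cell library, at 49.2, fell within their range. These contrasts passed the threshold of p, but with a mean of 38.3 over the 22 libraries *Sucnr1* stayed under the minimum mean of a call. With the minimum mean asked of the higher of the 2 cell types instead, it was called in tuft cells.

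**Figure D2:**
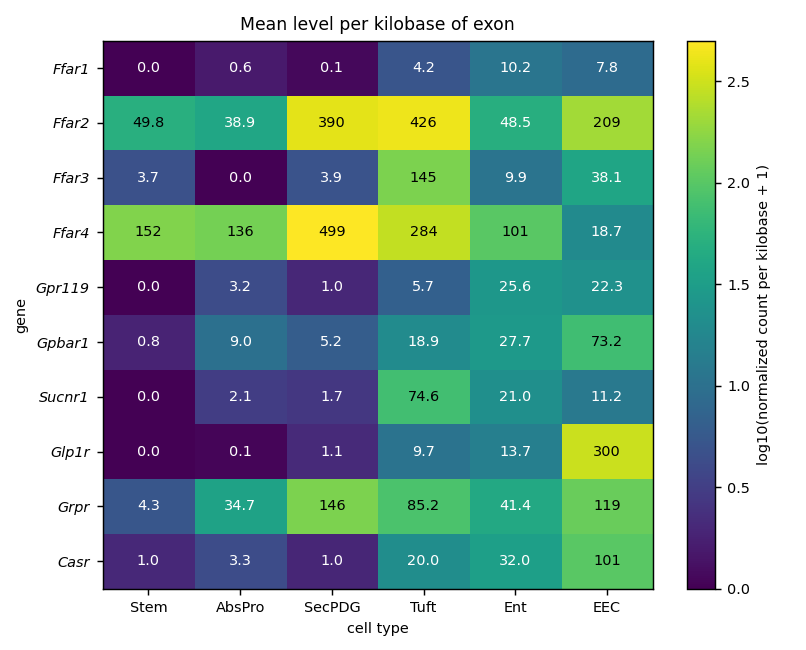
Mean normalized count per kilobase of exon of each receptor (rows) in each cell type (columns), with the colour on a log10 scale after adding 1. The highest cells are *Ffar4* in SecPDG at 499, *Ffar2* in tuft cells at 426 and in SecPDG at 390, and *Glp1r* in EECs at 300.

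*Casr* encodes the calcium-sensing receptor, which also responds to aromatic amino acids, and lies on chromosome 16 from 36493696 to 36562141 on the minus strand. Stem had 0, 14.7 and 0 normalized counts, AbsPro 7.06, 37.4 and 1.88, and SecPDG 0, 11.2, 0 and 6.86. Tuft cells had 0, 130, 234, 74.8 and 34.3, Ent had 238, 147, 181, 100 and 88.6, and EECs had 521 and 431. Both EEC libraries were above all others, and the tuft cell libraries spread from 0 to the level of the highest Ent library.

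Against Stem *Casr* was higher in EECs by 6.45 ± 0.86 (log2, SE; adjusted p = 1.1e-08), in Ent by 4.80 ± 0.90 (adjusted p = 2.0e-05) and in tuft cells by 4.06 ± 0.99 (adjusted p = 0.0015). In tuft cells 4 of 5 libraries were above the Stem mean, and the call was lost without Stem 1 (adjusted p = 0.011), Stem 3 (0.021) or Tuft 3 (0.015). EECs were above tuft cells by 2.39 ± 0.52 (adjusted p = 0.00045) and not called against Ent (1.65 ± 0.49, adjusted p = 0.021). The means in EECs, Ent and tuft cells were 17.8, 6.87 and 8.45 times the background.

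*Glp1r* encodes the receptor of the incretin hormone GLP-1 and lies on chromosome 17 from 30901817 to 30940791 on the plus strand. It had no reads in the 3 Stem libraries, 0, 0.81 and 0.94 normalized counts in AbsPro and 0, 17.4, 0 and 7.84 in SecPDG. Tuft cells had 17.1, 78.2, 82.2, 50.6 and 54.4 and Ent had 143, 74.6, 80.9, 59.3 and 38.8. EEC 1 had 759 and EEC 2 had 2725. Both EEC libraries were more than 5 times above every other library, and EEC 2, the one with the lower background, was the higher.

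The EEC mean of *Glp1r* was at least 2528-fold above Stem (adjusted p = 9.2e-16). In EECs it was higher than in Ent by 4.50 ± 0.42 (log2, SE; adjusted p = 1.5e-12), than in tuft cells by 4.98 ± 0.43 (adjusted p = 7.7e-14), than in SecPDG by 8.32 ± 0.65 (adjusted p = 8.0e-16) and than in AbsPro by 11.38 ± 0.94 (adjusted p = 8.3e-15). It was also called against Stem in tuft cells (at least 82.0-fold, adjusted p = 0.0011) and in Ent (at least 115-fold, adjusted p = 8.8e-05). The call in tuft cells was lost with only the 2 cell types fitted and with thinned counts (adjusted p up to 0.026). Those means of 56.5 and 79.4 were 4.10 and 2.93 times the background, and the EEC mean was 52.9 times.

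The summed EEC markers (*Chga*, *Chgb*, *Tph1*, *Tac1*, *Neurod1*, *Insm1*, *Pax6* and *Scgn*) were at 598835 in EEC 1 and 1722296 in EEC 2, and ran from 1547 to 27341 in tuft cells and 7039 to 27217 in Ent. The Ent and tuft cell means of that sum were 1.19% and 0.711% of the EEC mean, beside 4.56% and 3.24% for *Glp1r*. Without Tuft 5 the share of the markers in tuft cells was 0.300%. Without EEC 2 the markers were at 2.30% in Ent and 1.38% in tuft cells and *Glp1r* at 10.5% and 7.44%, and without EEC 1 *Glp1r* was at 2.91% and 2.07%. EEC 2 held 2.88 times the marker sum of EEC 1 and 3.59 times its *Glp1r*.

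*Gcg*, the gene of proglucagon from which GLP-1 is made, was lowest where its receptor was highest. It was at 0 and 2.43 normalized counts in the EECs and at 64.0 ± 66.4 (SD, n = 3) in Stem. AbsPro reached 1741 ± 1562 (SD, n = 3), and Ent reached 2676 ± 1401 (SD, n = 5). Against Stem it was higher by 4.73 ± 0.74 (log2, SE; adjusted p = 6.1e-05) in AbsPro and by 5.34 ± 0.72 (adjusted p = 5.7e-08) in Ent. DESeq2's Wald test did not call it in AbsPro (adjusted p = 0.036). In EECs it was not called against Stem (adjusted p = 0.17 by edgeR). The EEC libraries thus held RNA of the receptor with hardly any of the hormone's, and the Ent libraries held both. *Gcg* is on a list of ligands chosen for these receptors, but it is described here because of these values.

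*Grpr* encodes the receptor of gastrin-releasing peptide and lies on chromosome X from 163513904 to 163549677 on the minus strand. It was close to absent from Stem, with 0, 14.1 and 18.2 normalized counts, and present in every other library. AbsPro had 105, 56.9 and 101, SecPDG 237, 737, 190 and 306, and tuft cells 174, 322, 126, 206 and 246. Ent had 93.6, 109, 93.6, 92.4 and 134, and EECs had 148 and 454. No library of the other 5 cell types was as low as any of the Stem libraries.

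Against Stem *Grpr* was higher by 4.97 ± 0.65 (log2, SE; adjusted p = 3.4e-08) in SecPDG, 4.25 ± 0.68 (adjusted p = 2.4e-06) in tuft cells, 4.80 ± 0.76 (adjusted p = 8.8e-07) in EECs and 3.20 ± 0.78 (adjusted p = 0.00062) in Ent. In AbsPro it was 2.95 ± 0.82 (adjusted p = 0.052), with all 3 libraries above the Stem mean. It was the one receptor of the 10 called in all 4 of the former. In the 4 cell types its mean was 498, 35.9, 21.1 and 8.89 times the background, in the order given. Its ligand gene *Grp* was between 0 and 38.0 in all libraries and was not called in any cell type against Stem.

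**Figure D3:**
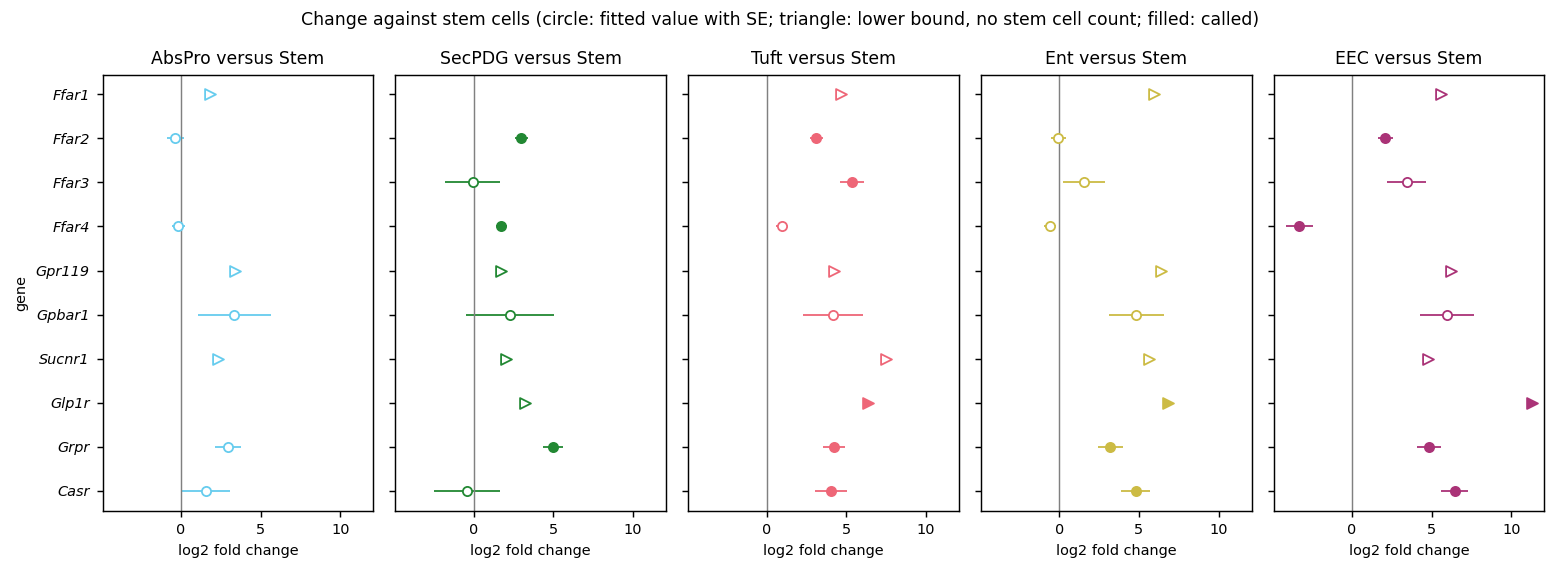
Log2 fold change against Stem of the 10 receptors, 1 panel for each of the other cell types. Circles are fitted values with their SE, triangles are lower bounds where Stem had no count, filled symbols are called, and pairs without a fold are left out; *Grpr* is filled in 4 panels and *Ffar4* in EECs is the one filled symbol to the left of 0.

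In contrasts that leave Stem out, SecPDG were above AbsPro in 3 of the 10 receptors, *Ffar2*, *Ffar4* and *Grpr*, beside 2.00% of all genes called higher. Tuft cells were above AbsPro in *Ffar2*, *Ffar3* and *Glp1r*, 3 of 10 beside 5.23%, and Ent in *Casr* and *Glp1r*, 2 beside 8.21%. EECs were above AbsPro in 5, *Casr*, *Ffar2*, *Ffar3*, *Glp1r* and *Grpr*, beside 9.85%, and below them in *Ffar4*, 1 beside 8.48%. Tuft cells and SecPDG differed in 2, *Ffar3* and *Casr*, both higher in tuft cells, beside 3.02%.

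Ent were above SecPDG in 2, *Casr* and *Glp1r*, beside 10.7%, and below them in 3, *Ffar2*, *Ffar4* and *Grpr*, beside 12.6%. EECs were above SecPDG in the same 2, beside 11.2%, and below them in 1, *Ffar4*, beside 10.1%. Ent were below tuft cells in 3, *Ffar2*, *Ffar3* and *Ffar4*, beside 5.79% of all genes called lower. EECs were above tuft cells in *Glp1r* and *Casr*, 2 beside 4.74%, and below them in *Ffar4*, 1 beside 4.55%. EECs were above Ent in 2, *Glp1r* and *Ffar2*, beside 3.43%. These contrasts share libraries with each other.

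By the order of their means, *Ffar2*, *Ffar3* and *Sucnr1* were highest in tuft cells, *Ffar4* and *Grpr* in SecPDG, *Gpbar1*, *Glp1r* and *Casr* in EECs and *Ffar1* and *Gpr119* in Ent. The highest cell type was the same under 3 scalings for 7 of the 10, and for *Grpr*, *Ffar1* and *Gpr119* it changed to EECs with DESeq2's size factors. The rank of *Gpbar1* rests on EEC 1, at 157 normalized counts, with 0 in EEC 2. That of *Grpr* rests on SecPDG 2, without which the EEC mean was 123% of the SecPDG mean. Only *Glp1r* differed between the highest and the next cell type by the call rule, EECs over Ent. For *Sucnr1* the adjusted p between tuft cells and Ent was 0.0086, without a call. For *Ffar3* the highest pair were tuft cells and EECs (adjusted p = 0.027), for *Casr* EECs and Ent (0.021), for *Ffar4* SecPDG and tuft cells (0.064) and for *Grpr* SecPDG and EECs (0.80).

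**Figure D4:**
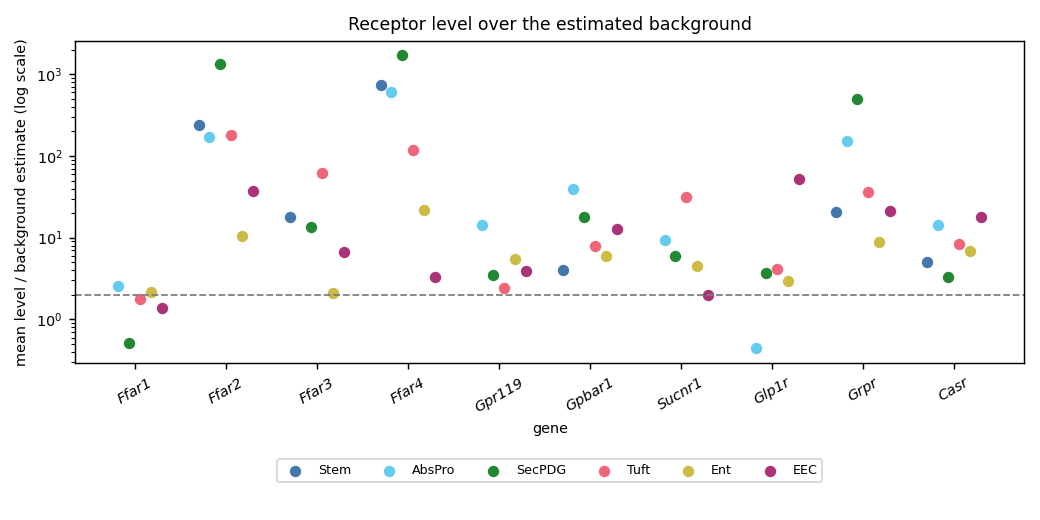
Mean level of each receptor divided by its background estimate (log scale), by cell type; the dashed line marks 2 times the background, and means of 0 are left out. *Ffar4* in SecPDG lies 1706 times above the background, whereas *Ffar1* lies below or near the line in every cell type.

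The genes whose profile over the 22 libraries was most like that of a receptor were found by Pearson's r of log2 CPM among 13188 genes with a mean of at least 50. For *Ffar3* they were *Rac2* (r = 0.93), a small GTPase of blood cells, *Rgs22* (0.93) and *Sptb* (0.92), the first of them with a mean of 964 in tuft cells, 478 in EECs and 1.86 in SecPDG. For *Glp1r* they were *Tmcc2* (0.96), *Gata2* (0.96), a transcription factor, and *Crmp1* (0.95), with EEC means of 794.5, 436 and 724. For *Casr* they were *Mapk8ip2* (0.96), *Slc38a3* (0.95), an amino acid transporter, and *Plekhg4* (0.95). For *Ffar2* they were *Arfgef3* (0.92), *Col8a1* (0.91) and *Nr4a1* (0.91), for *Ffar4* *Ufc1* (0.92), *Homer2* (0.92) and *Bet1l* (0.91), and for *Grpr* *Fam3c* (0.93), *Rasd2* (0.93) and *Arhgef37* (0.92). The libraries share cell types, depth and background, so that these values describe the profile and carry no test.

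**Figure D5:**
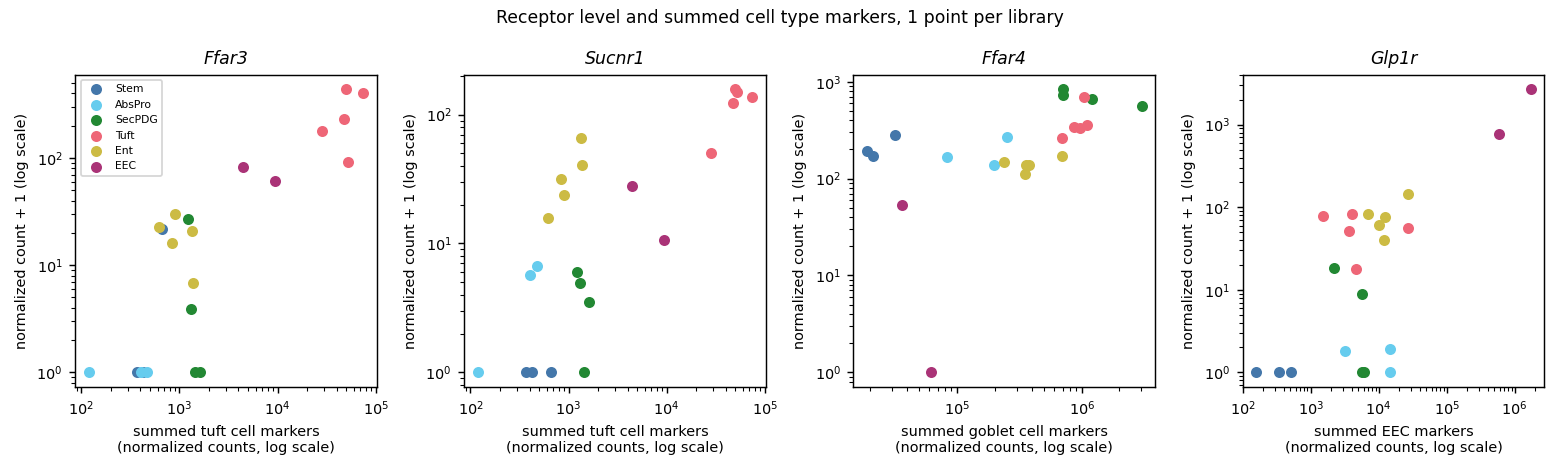
Normalized count plus 1 of *Ffar3*, *Sucnr1*, *Ffar4* and *Glp1r* against the summed markers of tuft cells, tuft cells, goblet cells and EECs, on log scales, 1 point per library coloured by cell type. The EEC libraries lie between Ent and tuft cells for *Ffar3*, and the 2 EEC libraries stand alone at the upper right for *Glp1r*.

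Among 13 other receptors of nutrients and metabolites, 1 was called higher and 1 lower in EECs and in Ent, and none in AbsPro, SecPDG or tuft cells by edgeR. These counts are no larger a share than the 10.8% and 10.7% of all genes called higher and the 9.13% and 11.5% called lower in EECs and Ent. In AbsPro, SecPDG and tuft cells 2, 1 and 11 of the 13 had an unadjusted p under 0.05, beside 9.10%, 17.4% and 46.3% of all genes. DESeq2's Wald test called 2 in each of these 3, and its share over all genes is not given here. The receptor called higher was *Olfr78*, an olfactory receptor that responds to short chain fatty acids and lactate. It had no reads in Stem and 719 ± 355 (SD, n = 2) normalized counts in EECs, at least 1044-fold more (adjusted p = 3.7e-13). The receptor called lower was *Lpar5*, which binds lysophosphatidic acid and is also activated by peptides, at 393 ± 66.9 (SD, n = 3) in Stem and 89.2 ± 21.4 (SD, n = 2) in EECs (log2 fold change -2.10 ± 0.55, adjusted p = 0.0014). *Olfr558*, a receptor of branched short chain fatty acids, had no reads in Stem and 272 and 300 in the EECs, (adjusted p = 2.7e-08). With a mean of 43.5 over all libraries it stayed under the minimum mean and was not called, and it is named after its values were seen.

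Among 27 other receptors of gut hormones and peptides, 9 were called higher and 1 lower in EECs, 6 higher and 1 lower in tuft cells and 8 higher in Ent. None was called in AbsPro or SecPDG by edgeR. There 5 and 7 had an unadjusted p under 0.05, beside 9.10% and 17.4% of all genes, and DESeq2 called 2 in each. Of all genes, 10.8% were called higher and 9.13% lower in EECs, 7.84% and 4.23% in tuft cells and 10.7% higher in Ent. Over the list, the median change on the log2 scale was 3.72 for EECs, 2.33 for tuft cells and 3.65 for Ent, beside 0.87, 0.81 and 1.16 over all genes. The background estimate was higher than in Stem in these cell types too, and its part in the medians was not tested. For the 8 called in Ent, background was 7.16% (*Sstr1*) to 30.3% (*Tacr1*) of the Ent mean. In EECs the most significant were *Sstr1*, *Sstr3* and *Sstr5*, receptors of the inhibitory hormone somatostatin, and *Galr1*, the receptor of galanin. *Sstr1* rose from 8.33 ± 8.80 to 2566 ± 2538 (log2 8.36 ± 0.67, adjusted p = 5.9e-16), and *Galr1* from 0 to 1397 ± 1365 (SD, n = 2), at least 2028-fold. Background was 0.452% of the EEC mean of *Sstr1*, 5.76% for *Sstr3*, 4.45% for *Sstr5* and 1.21% for *Galr1*. In tuft cells the most significant were *Vipr2*, a receptor of vasoactive intestinal peptide, *Calcrl*, *Sstr3* and *Glp2r*, the receptor of GLP-2. Background was 3.73%, 4.14%, 12.6% and 21.0% of their tuft cell means, in this order. *Vipr2* rose from 43.0 ± 9.25 to 284 ± 111 (log2 2.75 ± 0.48, adjusted p = 1.4e-05). *Vipr1*, the other receptor of that peptide, fell in both, from 5048 ± 210 in Stem to 1821 ± 745 in tuft cells (adjusted p = 0.0011) and 617 ± 405 in EECs (adjusted p = 6.2e-06).

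These receptors signal through G proteins and their effectors. Among 33 G proteins, phospholipases, adenylyl cyclases, calcium channels and arrestins, 15 were called higher and 1 lower in tuft cells, 16 higher and 2 lower in EECs, 9 higher and 1 lower in Ent, 7 higher in SecPDG and 1 higher in AbsPro. Of all genes, 7.84% and 4.23% were called higher and lower in tuft cells, 10.8% and 9.13% in EECs, 10.7% and 11.5% in Ent, 3.38% higher in SecPDG and 0.588% in either direction in AbsPro. DESeq2's Wald test called 19, 23, 15, 11 and 2 of the 33 in these cell types, in either direction, and its share over all genes is not given here. In tuft cells the most significant were *Plcb2*, *Trpm5* and *Gnat3*, the phospholipase, ion channel and G protein of taste signalling, and *Adcy5*, an adenylyl cyclase. *Plcb2* was at 8.03 ± 4.79 (SD, n = 3) in Stem and 4266 ± 1740 (SD, n = 5) in tuft cells, and *Trpm5*, also one of the tuft cell markers above, at 12.2 ± 12.1 and 9728 ± 3290. *Gnat3* had no reads in Stem and 919 ± 266 in tuft cells, at least 1333-fold more (adjusted p = 1.3e-15). In EECs the most significant were *Gnao1*, a G protein alpha subunit of neurons and endocrine cells, the adenylyl cyclases *Adcy2* and *Adcy1*, and *Trpm5*. *Gnao1* rose from 26.8 ± 24.3 to 2651 ± 2573 (log2 6.70 ± 0.60, adjusted p = 1.9e-13). The phospholipase *Plcb3* fell in both, by 1.81 (SE 0.37, adjusted p = 0.00018) in tuft cells and by 2.65 (SE 0.53, adjusted p = 5.5e-05) in EECs.

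Of 5 genes for the peptide ligands and their processing, *Pcsk1*, the convertase that cuts prohormones, was called in SecPDG, tuft cells and EECs, the 1 gene of the list called in each of them. Of all genes, 3.38%, 7.84% and 10.8% were called higher in these cell types. *Pcsk1* rose from 140 ± 36.4 (SD, n = 3) in Stem to 1430 ± 1000 (SD, n = 2) in EECs (log2 3.36 ± 0.44, adjusted p = 1.4e-08) and 507 ± 302 (SD, n = 5) in tuft cells (1.88 ± 0.39, adjusted p = 0.00028). *Dpp4*, whose product inactivates GLP-1, was called lower in Ent, at 948 ± 276 against 2006 ± 451 in Stem (adjusted p = 0.0020). It is named after its values were seen, and DESeq2's Wald test did not call it (adjusted p = 0.012).

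RNA processing tables made by the authors from the same libraries held few of the receptors. Of 5 tables of skipped exons, those of SecPDG and tuft cells against Stem held *Ffar2* and that of tuft cells also *Ffar4*. The 62-base exon of *Ffar2* at chr7:30820677-30820738 lies before the coding part of the gene. Reads that include it were 0, 0 and 17 in Stem, 200, 21, 79 and 70 in SecPDG and 64, 33, 94, 24 and 127 in tuft cells, and reads that skip it were 0 in Stem, 0, 0, 0 and 1 in SecPDG and 0, 0, 0, 11 and 5 in tuft cells. Skipping of this exon was thus seen in 2 of 5 tuft cell libraries, and the 17 reads of Stem are too few to set a level beside it. The 129-base exon of *Ffar4* at chr19:38107382-38107510 was included by 88 reads in Stem and 394 in tuft cells and skipped by 0 and 1.

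The tables of distal polyadenylation site use held *Ffar4* in SecPDG and tuft cells. In the SecPDG table the distal share was 0.42 in the one Stem library with a value and 0.85, 0.39, 0.21 and 0.36 in SecPDG. In the tuft cell table, with another predicted proximal site, it was 0.00, 0.68 and 0.14 in Stem and 0.15, 0.70, 0.34, 0.38 and 0.77 in tuft cells. The ranges overlapped in both tables. The libraries stand there without names and cannot be tied to those of the gene counts, and no test was run on these values.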

How the data were processed

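Gene counts of 22 libraries were analysed. The authors aligned paired reads with STAR 2.5.2a to mm10, counted them per gene with HTSeq 0.6.1p1 without strand on the UCSC annotation, and deposited raw counts. In each file 5 summary entries name no gene; they hold 53.9% to 91.6% of all counted entries and stayed out of library sizes and tests. The deposited tables of rMATS and DaPars hold reads per exon event and a fraction, the distal site share. Their comparison columns, like the tables of MAJIQ, hold the authors' own tests and were not used.

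Counts were filtered with filterByExpr and TMM-normalized, and tested in R 4.3.3 with edgeR 4.0.16 (quasi-likelihood F test, legacy = FALSE), in 1 fit of all libraries with cell type as the only term. P-values were Benjamini-Hochberg adjusted over 22781 genes for each contrast. The fit was tested on simulated data. SEs were derived from the F statistic, and 95% intervals are ±1.96 SE. The floor of 3 counts over a group without reads covers counting error alone. Exon lengths and coordinates (1-based) come from GENCODE on GRCm38, the assembly of mm10. DESeq2 1.42.0 was an alternative. Other software was pandas 2.3.3, numpy 2.4.6 and matplotlib 3.10.9 with Python 3.11.15.

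The 10 receptors and the lists of context genes and markers were chosen with earlier results of these data known. The genes named are the receptors, the 4 called genes with the smallest adjusted p in each direction against Stem in tuft cells and EECs of each list, and the 3 genes most like each receptor with a mean of at least 50. *Gcg*, *Grp*, *Dpp4*, *Olfr558* and *Ptprc* were named in addition, after their values were seen. Alternatives were other scalings, tests, filters, thresholds, thinned counts, a replicate block, a background minimum and each library left out. No 2 libraries of a cell type had counts that agree within sampling noise.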

Additional observations from a re-analysis of the deposited data

Results flagged for a closer look

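In groups of 4 or 5 libraries, a library was looked at again where its gap to the nearest other took most of the group's range (Dixon's test at the 95% level). By chance this happens in about 1 of 20 groups of normally spread values. That rate does not hold near 0: a single library with reads among libraries at 0 is always flagged. Of 30 groups, 4 held such a library. *Ffar4* stood at 701 in Tuft 5, against 263 to 356 in the other 4 tuft cell libraries. Tuft 5 is the tuft cell library with the most counts on genes (20892532) and the lowest background (179.7 CPM). *Ffar1* stood at 84.3 in Ent 3, against 25.1 to 39.0 in the other Ent libraries. In SecPDG 2, *Ffar3* stood at 26.1 with 0 to 2.94 in the other 3 libraries, and *Ffar1* at 2.49 with 0 in the others. SecPDG 2 is also the SecPDG library with the highest sum of goblet cell markers, 3006636. No part of these values was tested further.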

How the results depend on the processing

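The number of receptors called against Stem moved by over 1.5 times under few settings. It went from 0 to 1 in AbsPro with DESeq2's Wald test, from 5 to 2 in tuft cells with counts thinned to the smallest library and to 3 with edgeR's legacy fit (added after seeing the data), from 3 to 6 in Ent without the minimum mean, and from 5 to 3 in EECs with the 2 cell types fitted alone. With single libraries left out the count stayed at 0 for AbsPro and at 3 for SecPDG and Ent, and was 4 to 5 for tuft cells and 3 to 6 for EECs, with 3 when EEC 2 was left out. A cell type left with 1 library was assumed to vary like the others.

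Of 414 values for single receptors with an adjusted p under 0.01, 383 kept their direction and side of the call, 19 lost the call, 11 gained one and 1 reversed. The last was *Gpbar1* in EECs, at -3.12 without EEC 1 (adjusted p = 0.94), with a range of -3.12 to 8.92 over the left-out libraries. *Ffar2* and *Grpr* in SecPDG and in tuft cells and *Glp1r* in Ent and EECs kept their call under every setting. *Ffar4* lost it in EECs under 4 settings, with an adjusted p up to 0.096, and *Casr* in tuft cells under 5, up to 0.026. *Ffar2* in EECs, *Ffar3* and *Glp1r* in tuft cells and *Ffar4* in SecPDG lost it under 2 each, and *Casr* in Ent and in EECs with thinned counts. The cause was not tested.

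Same-numbered libraries of different cell types correlated by -0.391 to 0.501, over 0.1 in 14 of 44 pairs. Differently numbered libraries were not correlated beside them, so that these values cannot decide whether the numbers pair libraries. With a replicate block the counts were 0 (AbsPro), 3 (SecPDG and Ent), 5 (tuft cells) and 6 (EECs). The 2 EEC libraries and the background of Ent and EECs limit what can be said of receptors under 50 normalized counts.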
